A study of Macaca fascicularis with 16 samples.

Results

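The 8 genes described here are MDM2 and 7 other targets of the transcription factor p53, namely PPM1D, CCNG1, CDKN1A, TP53INP1, SESN1, ZMAT3 and XPC. They were found by symbol among the 23602 gene symbols of the count files, and all 8 were present in all 16 libraries. MDM2 was picked because its level was higher 2 hours after dosing, and the other 7 because they are well-known p53 targets, so that it could be asked whether they follow MDM2 over time within each animal. Values of the 8 genes at 2 hours against pre-treatment are therefore given as a description without a test. The libraries came from unfractionated mononuclear cells in the peripheral blood of 4 cynomolgus macaques (Macaca fascicularis) of Mauritian origin named LG04, LG11, LG12 and LG15. Each animal was bled before treatment and 30 minutes, 2 hours and 1 day after NKTT320, a monoclonal antibody against the receptor that defines iNKT (invariant natural killer T) cells, and the study asked how the antibody activates these rare lymphocytes in the living animal. All 4 animals received the antibody and the labels give neither a dose nor an age. Untreated animals were not analysed here, so the antibody, the passage of time and repeated bleeding cannot be told apart.

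p53 is a transcription factor that stressed or DNA-damaged cells stabilise. MDM2 is the ubiquitin ligase that marks p53 for degradation, and its gene is itself switched on by p53, which closes a negative feedback loop. PPM1D (the phosphatase WIP1) and CCNG1 (cyclin G1) also damp p53, CDKN1A (p21) arrests the cell cycle, and in human blood cells several of these genes are known to rise together after ionizing radiation.

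Total counts ranged from 1417467 to 8582852 per library. Globin counts, which come from red cells, made up between 0.025% and 48.7% of a library and were highest in LG04 at 30 minutes and 2 hours, so levels are given as CPM (counts scaled to library size) with library sizes adjusted by the trimmed mean of M-values (TMM). On CPM of all counts the median gene was shifted by -0.28 (log2) at 2 hours against pre-treatment, averaged over the animals, and by -1.04 in LG04. The series-wide tables repeated for LG04 the values of 1 day under the 2 hour label, and the tables made per animal, in which the libraries differ, were used. The 1 day library of LG04 also differed less from the 1 day library of LG15 (chi-square per gene 11.3) than from the other libraries of LG04 (88.1 to 158). The 1 day library of LG15 likewise differed more from the other libraries of LG15 (36.9 to 139). Results were therefore also computed without the 2 hour and 1 day libraries of LG04, but no setting left out the 1 day library of LG15 alone. These 1 day libraries held 1846011 (LG04) and 3156626 (LG15) counts, and the effect of depth on this measure was not tested. T-cell markers were present in all libraries, with a summed level of 1753 to 3409 CPM. All 17 monocyte markers were detected, and their sum spanned 271.6 to 9468 CPM.

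MDM2 was highest at 2 hours in each of the 4 animals on the TMM scale. In LG04 the MDM2 level was 125, 143, 198 and 129 CPM before treatment and at 30 minutes, 2 hours and 1 day. In LG11 it was 173, 297, 367 and 304 CPM over the same times. These animals differed in the return, since LG04 was close to its starting level at 1 day while LG11 was still well above it. In LG12 the MDM2 level was 116, 106, 196 and 153 CPM, and in LG15 it was 111, 123, 186 and 121 CPM. The levels of the 4 animals were 186 to 367 CPM at 2 hours and 111 to 173 CPM before treatment. MDM2 averaged 236.8 ± 86.8 CPM at 2 hours and 131 ± 28.6 CPM before treatment (SD, n = 4 each), and the within-animal ratio was 1.59 in LG04, 2.12 in LG11, 1.69 in LG12 and 1.67 in LG15. The fitted log2 change was 0.80 ± 0.15 (SE), and of all 11545 genes tested 8.06% were higher in 4 of 4 animals at 2 hours. Since MDM2 was chosen on this contrast, nothing is read from that share.

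The size of the MDM2 change depended on the scale in 1 animal. On CPM of all counts MDM2 read 117, 89.0, 91.0 and 107 CPM in LG04 over the 4 times, which put 2 hours below pre-treatment in that animal. It read 203, 324, 419 and 342 CPM in LG11, and 147, 128, 246 and 186 CPM in LG12. In LG15 it read 126, 147, 197 and 96.9 CPM. On that scale MDM2 was therefore highest at 2 hours in 3 of 4 animals, and with globin counts left out of the library size it was highest at 2 hours in 4 of 4. Without the 2 hour and 1 day libraries of LG04 the fitted log2 change at 2 hours was 0.84.

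**Figure D1:**
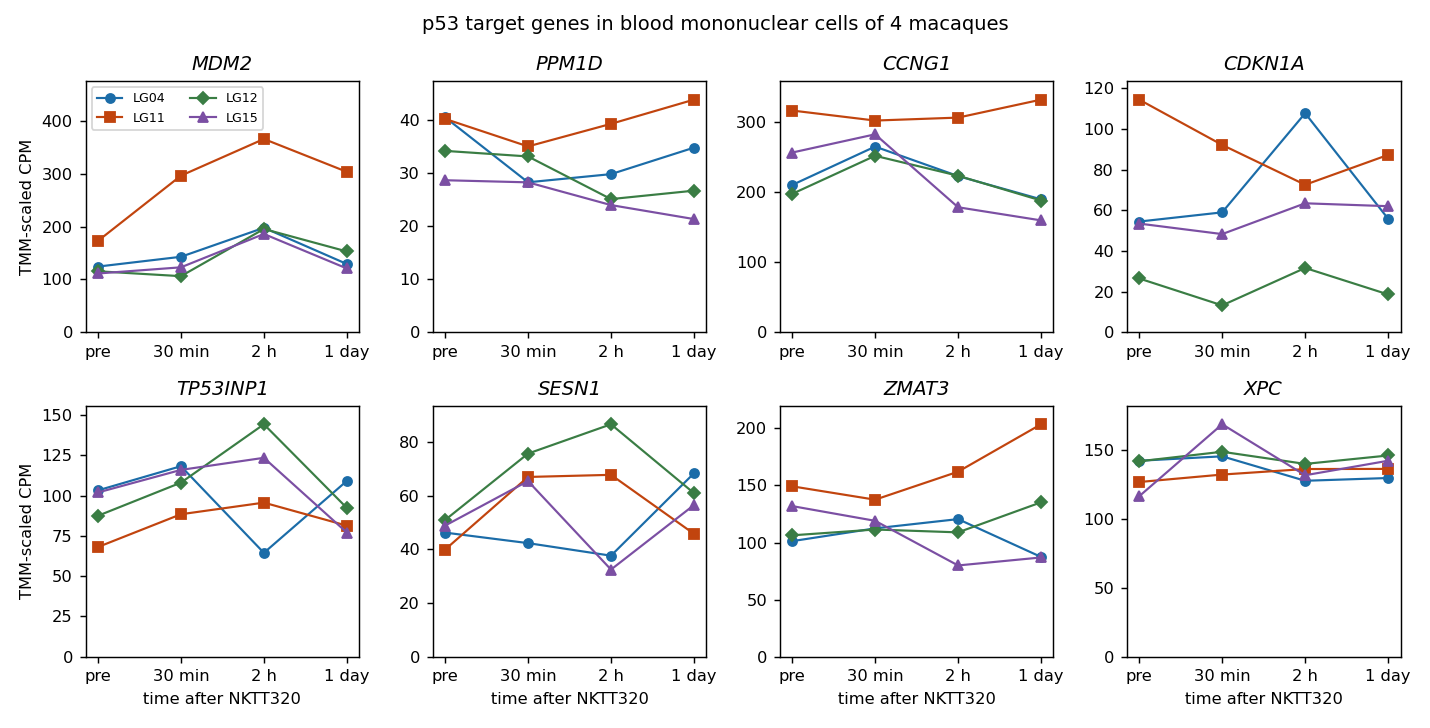
Level of each of the 8 p53 target genes (y axis, TMM-scaled CPM, from 0) before treatment and at 30 minutes, 2 hours and 1 day (x axis), with 1 line and 1 marker shape per animal and n = 4 animals. MDM2 has its highest point at 2 hours in 4 of 4 lines, whereas CCNG1, XPC and PPM1D have it there in none.

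At the times not used to pick it, MDM2 did not pass the threshold. These times were compared with the same pre-treatment libraries as the 2 hour change on which MDM2 was picked. Its values at 30 minutes and 1 day are therefore not free of that choice. At 30 minutes MDM2 averaged 167 ± 87.8 CPM, against 131 ± 28.6 CPM before treatment, and was higher in 3 of 4 animals, with a log2 change of 0.25 ± 0.15 (SE; edgeR quasi-likelihood test, Benjamini-Hochberg adjusted p = 0.9999; 95% interval -0.08 to 0.59). At 1 day it averaged 177 ± 86.0 CPM, against 131 ± 28.6 CPM, and was higher in 4 of 4 animals, as were 9.83% of all genes, with a log2 change of 0.35 ± 0.15 (edgeR adjusted p = 0.311; unadjusted p = 0.0354). On CPM of all counts and on CPM without globin counts, MDM2 was higher at 1 day in 2 of 4 animals, LG11 and LG12. Of the 8 genes, edgeR called 0 at 30 minutes and 0 at 1 day, against 0% and 0.225% of all genes tested. DESeq2 also called 0 of the 8 at 30 minutes and 0 at 1 day, and an unadjusted edgeR p under 0.05 was reached by 0 of the 8 at 30 minutes (2.53% of all genes) and by MDM2 alone at 1 day (13.6% of all genes). Over all genes DESeq2 called 0.166% at 30 minutes and 3.46% at 1 day.

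The other genes that damp p53 did not share the course of MDM2. PPM1D encodes WIP1, a phosphatase that reverses the phosphorylation of p53 and of the kinases that activate it. In LG04 the PPM1D level was 40.6, 28.3, 29.8 and 34.8 CPM before treatment and at 30 minutes, 2 hours and 1 day, and in LG11 it was 40.3, 35.1, 39.3 and 43.9 CPM. In LG12 it was 34.2, 33.2, 25.1 and 26.7 CPM, and in LG15 it was 28.7, 28.3, 23.98 and 21.3 CPM. At 2 hours PPM1D was below its pre-treatment level in 4 of 4 animals on all 3 scales, by a fitted log2 difference of -0.29 ± 0.15 (SE), and of all genes tested 6.52% were lower in 4 of 4. The pre-treatment and 2 hour levels of PPM1D overlapped between animals (28.7 to 40.6 CPM before treatment). PPM1D was also lower in 4 of 4 animals at 30 minutes, against 4.42% of all genes, and in 3 of 4 on both CPM scales without TMM. At 30 minutes its log2 difference was -0.19 (95% interval -0.53 to 0.15) and at 1 day -0.20 (-0.55 to 0.14).

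CCNG1 encodes cyclin G1, which recruits a phosphatase to MDM2. Its level was 209.6, 264, 222 and 189 CPM in LG04 over the 4 times, and 316, 301, 306 and 331 CPM in LG11. It was 197, 251, 223 and 187 CPM in LG12, and 256, 282, 178 and 159 CPM in LG15. CCNG1 was highest at 30 minutes in 3 of 4 animals (2 of 4 on CPM of all counts) and at 2 hours in none. Its log2 change was 0.19 ± 0.15 (SE) at 30 minutes and -0.08 ± 0.15 at 2 hours, and at 1 day it was -0.20 (95% interval -0.55 to 0.15).

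CDKN1A, the cyclin-dependent kinase inhibitor p21 that arrests the cell cycle, differed in level and in direction between animals. In LG04 the CDKN1A level was 54.5, 59.0, 108 and 55.9 CPM over the 4 times, a 1.98-fold higher level at 2 hours than before treatment. In LG11 it was 115, 92.2, 72.6 and 87.3 CPM, with the lowest level at 2 hours. LG04 and LG11 thus moved in opposite directions at 2 hours. In LG12 CDKN1A was 26.4, 13.2, 31.6 and 18.6 CPM, and in LG15 it was 53.5, 48.3, 63.5 and 62.0 CPM. CDKN1A was higher at 2 hours than before treatment in 3 of 4 animals, with a fitted log2 change of 0.23 ± 0.24 (SE), and without the 2 hour and 1 day libraries of LG04 this value was 0.02. At 30 minutes its log2 change was -0.31 (95% interval -0.84 to 0.23) and at 1 day -0.16 (-0.71 to 0.38).

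TP53INP1, a nuclear protein that promotes p53 phosphorylation and cell death, was highest at 2 hours in 3 of 4 animals on the TMM scale and in 2 of 4 on CPM of all counts. Its level was 103, 118, 64.5 and 109 CPM in LG04 over the 4 times, with 2 hours the lowest. It was 68.1, 88.4, 95.6 and 81.3 CPM in LG11, 87.5, 108, 144 and 92.3 CPM in LG12, and 102, 116, 123 and 77.0 CPM in LG15. LG04 was thus the exception at 2 hours, and the fitted log2 change of 0.25 ± 0.21 (SE) became 0.48 without the 2 hour and 1 day libraries of LG04. At 30 minutes TP53INP1 was higher in 4 of 4 animals, against 6.21% of all genes tested, with ratios of 1.14 to 1.299 and a log2 change of 0.26 (95% interval -0.20 to 0.73; edgeR adjusted p = 0.9999). On both CPM scales without TMM it was higher at 30 minutes in 3 of 4 animals.

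SESN1, a sestrin that restrains the growth kinase mTORC1 and oxidative stress, split the animals into 2 pairs at 2 hours. In LG11 the SESN1 level was 39.9, 67.0, 67.8 and 45.8 CPM over the 4 times, and in LG12 it was 50.9, 75.7, 86.6 and 60.9 CPM. In LG04 it was 46.3, 42.3, 37.7 and 68.3 CPM, and in LG15 it was 48.8, 65.4, 32.5 and 56.5 CPM. SESN1 was 1.70-fold its pre-treatment level at 2 hours in both LG11 and LG12, whereas LG04 (0.81-fold) and LG15 (0.67-fold) were lower. Its log2 change was 0.41 at 30 minutes (95% interval -0.15 to 0.97), 0.23 ± 0.25 (SE) at 2 hours and 0.31 at 1 day (-0.25 to 0.88). The 1 day value was 0.13 without the 2 hour and 1 day libraries of LG04. At 1 day SESN1 was higher in 4 of 4 animals, as was MDM2, against 9.83% of all genes tested. On both CPM scales without TMM, SESN1 was higher at 1 day in 3 of 4 animals.

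ZMAT3, an RNA-binding protein that alters splicing and RNA stability, showed no shared course. Its level ranged from 79.9 CPM in LG15 at 2 hours to 204 CPM in LG11 at 1 day, and it was highest at 1 day in LG11 and LG12, at 2 hours in LG04 and before treatment in LG15. XPC, which recognises damage in nucleotide excision repair, had the smallest standard error of change among the 8 at 2 hours. XPC stayed within 116 to 168 CPM in all 16 libraries, both ends of which came from LG15, and its log2 change was 0.02 ± 0.11 (SE) at 2 hours. At 30 minutes XPC was higher in 4 of 4 animals, against 6.21% of all genes tested. This was 1 of 4 on CPM of all counts and 2 of 4 on CPM without globin counts. The log2 change of XPC was 0.17 at 30 minutes (95% interval -0.08 to 0.43) and 0.07 at 1 day (-0.18 to 0.33), and that of ZMAT3 was -0.02 (-0.44 to 0.41) and 0.02 (-0.42 to 0.45).

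**Figure D2:**
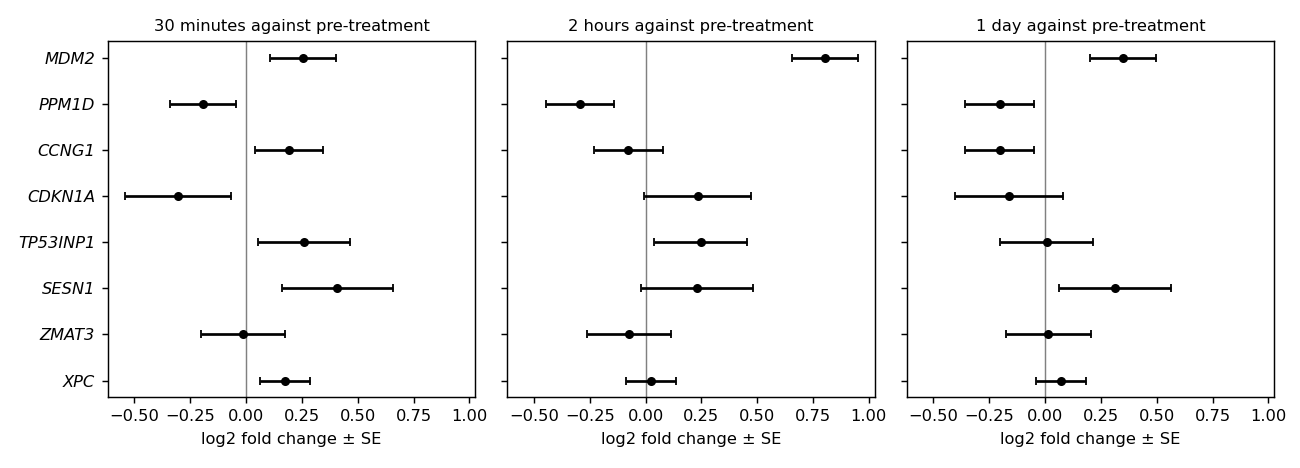
Fitted log2 fold change against pre-treatment (x axis) of the 8 genes (y axis) at 30 minutes, 2 hours and 1 day, as points with bars of 1 standard error, from 4 animals. At 2 hours MDM2 lies at 0.80 and the other 7 genes between -0.29 and 0.25.

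Set against MDM2 in the same animals, the other 7 genes changed less at 2 hours. PPM1D, CCNG1, ZMAT3, XPC and TP53INP1 had a smaller log2 change than MDM2 in 4 of 4 animals, and CDKN1A and SESN1 in 3 of 4. The exceptions were CDKN1A in LG04, which was 0.31 (log2) above the MDM2 change, and SESN1 in LG12, whose change equalled that of MDM2 to within 0.005. PPM1D had the narrowest spread of this difference, between -1.207 and -1.001 in the 4 animals. Since MDM2 was chosen for a high value at 2 hours, that the others lie below it is a description.

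Over all 16 libraries the likeness of each gene to MDM2 was measured as Pearson's r of log2 CPM after the mean of each animal was removed. The libraries of 1 animal and the common scaling are shared by all genes, so these values describe the 16 libraries. Among the 7 other genes r was 0.33 for CDKN1A, 0.27 for TP53INP1, 0.02 for SESN1, 0.02 for ZMAT3, -0.03 for XPC, -0.18 for CCNG1 and -0.52 for PPM1D. None of the 7 reached the 95th percentile of all genes, which was 0.571, and the median of all genes was 0.032. CDKN1A and TP53INP1 each rested on the animals included, since leaving out 1 animal moved r between 0.13 and 0.71 for CDKN1A and between 0.10 and 0.69 for TP53INP1.

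The 6 genes most like MDM2 by this measure were no p53 targets of the lists used here. They were STEAP4, a metalloreductase (r = 0.95), CD163, the haemoglobin scavenger receptor of monocytes and macrophages (0.92), NAIP, an inflammasome sensor (0.91), CRISPLD2, a secreted glycoprotein (0.90), TLR4, the lipopolysaccharide receptor (0.89), and KCNJ2, a potassium channel (0.89). CD163 and TLR4 are in the monocyte marker list, so the marker values below include genes picked here for likeness to MDM2. CD163 was 52.8, 139.7, 658 and 124 CPM in LG04 before treatment and at 30 minutes, 2 hours and 1 day, and 92.4, 411, 740.2 and 726 CPM in LG11. It was 32.1, 5.53, 161 and 133 CPM in LG12, and 83.4, 161, 796 and 136 CPM in LG15. CD163 was highest at 2 hours in 4 of 4 animals. Since it was picked for its likeness to MDM2 in these same libraries, nothing is read from that shared time. NAIP has near-identical copies in the human genome, so its count is uncertain.

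Like MDM2, the summed level of the 17 monocyte markers was higher at 2 hours than before treatment in each animal. The marker sum at 2 hours was 1379 to 8485 CPM, against 644.7 to 4180 CPM before treatment, and within animals it was 1.66-fold higher in LG04, 2.19-fold in LG11, 2.14-fold in LG12 and 3.91-fold in LG15. In bulk cells, more monocytes and more of these RNAs per monocyte cannot be told apart. Of 16 monocyte markers tested, all 16 had a log2 change above 0 at 2 hours, with a median of 1.195 against 0.02 over all genes, and none of the 17 was at 0 in all libraries. At 30 minutes LG12 had a lower monocyte sum (0.42-fold) and a lower MDM2 level (0.92-fold) than before treatment, while LG11 was higher in both (1.68-fold and 1.71-fold). LG04 and LG15 had monocyte sums of 1.49-fold and 1.625-fold, with smaller MDM2 changes of 1.15-fold and 1.11-fold. At 1 day the sum and MDM2 parted in LG15 and LG04. These had monocyte sums 0.75-fold and 0.36-fold their pre-treatment values with MDM2 at 1.09-fold and 1.04-fold. A sum gives most weight to the abundant markers. Taken gene by gene over the 4 animals, 15 of 16 markers tested had a log2 change above 0 at 1 day, with a median of 0.635. The parting therefore holds for the sum and not for each marker. In LG11 and LG12 the monocyte sum rose further from 2 hours (6562 and 1379 CPM) to 1 day (9468 and 1768 CPM). MDM2 fell over the same step, from 367 to 304 CPM in LG11 and from 196 to 153 CPM in LG12. With the mean log2 level of the monocyte markers as a further term in the fit, the log2 change of MDM2 at 2 hours was 0.59 in place of 0.80. The same term moved SESN1 at 2 hours to 0.54, ZMAT3 to -0.28 and CDKN1A to 0.10, and left PPM1D at -0.26. T-cell markers had a median log2 change of -0.29 at 2 hours, with 17 of 19 below 0, and B-cell markers of -0.43, with 12 of 13 below 0. The part of cell makeup in the MDM2 change was not tested beyond this term.

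**Figure D3:**
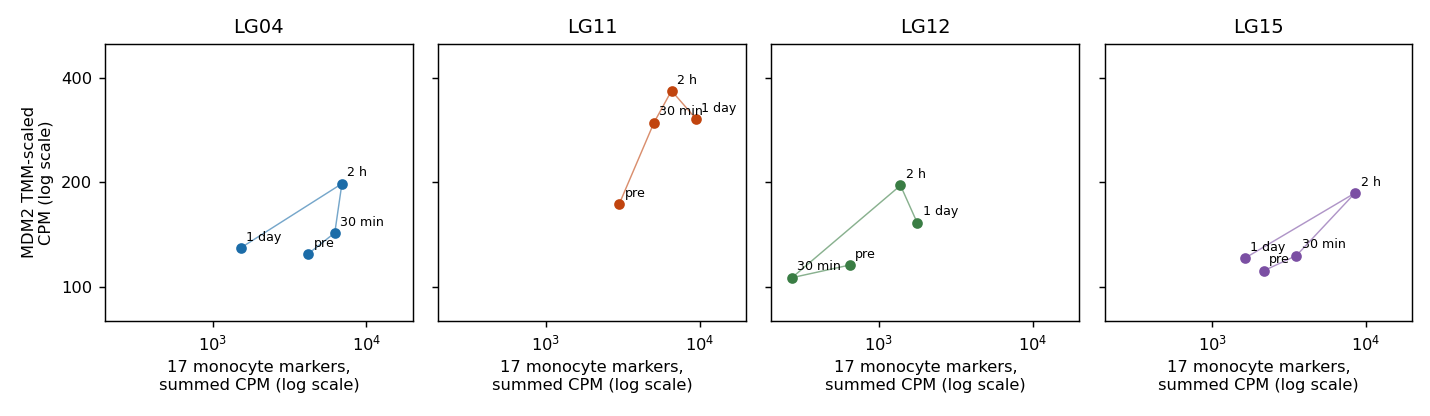
MDM2 level (y axis, TMM-scaled CPM, log scale) against the summed level of 17 monocyte markers (x axis, CPM, log scale), with 1 panel per animal and 1 labelled point per time, joined in time order. In 4 of 4 panels the 2 hour point is the highest for MDM2 and lies to the right of the pre-treatment point.

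In levels per gene length, CCNG1 was the most abundant of the 8 genes before treatment. By the deposited FPKM values, which are scaled to gene length, the level before treatment was 116 ± 30.2 FPKM for CCNG1, 38.0 ± 6.65 for XPC and 33.5 ± 21.4 for CDKN1A (SD, n = 4). MDM2 followed with 19.3 ± 5.26 FPKM, and SESN1 (17.1 ± 3.42), TP53INP1 (17.02 ± 2.84) and ZMAT3 (14.5 ± 3.61) were near it. PPM1D was lowest with 8.25 ± 1.32 FPKM. The animals' ranges did not overlap between CCNG1 and XPC, nor between ZMAT3 (lowest 9.68) and PPM1D (highest 9.62). Neighbours in the order from XPC to ZMAT3 overlapped.

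MDM4, the partner of MDM2 that blocks p53, had only 3 to 29 counts per library, and its FPKM per CPM was 6.26, against 0.132 for MDM2 and 2.37 for the next of the 98 genes of the p53 lists. The counts and the FPKM of MDM4 were thus at odds, and its course is not described. Its values among the changes that turned sign, listed at the end, rest on these few counts.

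Among 71 other p53 targets, sorted into lists for apoptosis, for arrest and growth control, and for DNA repair and metabolism, 60 had enough counts to be tested. The last list also took in targets of other functions, such as TLR3 and IKBIP, so its values do not stand for repair and metabolism alone. At 2 hours 29 of the 60 had a log2 change above 0 and 31 below, with a median of -0.02 against 0.02 over all genes. In 4 of 4 animals 6 of the 60 were higher and 8 (13.3%) were lower at 2 hours, against 8.06% and 6.52% of all genes. The edgeR test called 0 of the 60 at 2 hours and 0% of all genes, DESeq2 called 2 of the 60 and 0.684% of all genes, and 11 of the 60 (18.3%) had an unadjusted edgeR p under 0.05, against 7.43% of all genes. The lists were chosen with earlier results of these data known, so these shares and those of the lists below are a description. The 5 with the largest changes at 2 hours were PLK2 (-1.35), IER5 (-1.01), ANXA4 (0.70), TGFA (0.69) and TNFRSF10B (0.67, all log2). TNFRSF10B, the death receptor DR5, was also the p53 target outside the 8 genes with the highest r with MDM2, at 0.59. Its level was low, at 5.71 CPM on average before treatment. Over 67 p53 targets other than MDM2 the median r was -0.03. With the monocyte term ANXA4 and TGFA turned to -0.28 and -0.74, TNFRSF10B was 0.13 and IER5 and PLK2 were -0.68 and -0.97. Without LG15 TNFRSF10B was 0.37 and TGFA 0.33, and TGFA was 0.35 without LG11 and 1.35 without LG04.

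At 30 minutes edgeR called 0 of the 60 and 0% of all genes. An unadjusted p under 0.05 was reached by 1 of the 60 (1.67%), against 2.53% of all genes, and DESeq2 called 0 of the 47 for which it gave an adjusted p, against 0.166% of all genes. The 5 with the largest changes were LIF (-0.79), TGFA (0.69), GLS2 (0.61), TNFRSF10B (0.58) and TNFRSF10D (0.47, all log2), and the median of the 60 was -0.06 against 0.02 over all genes. LIF and TGFA averaged 2.61 and 2.74 CPM before treatment, and GLS2 and TNFRSF10B 4.15 and 5.71 CPM, so the changes of these genes rest on few counts. DESeq2 gave none of them an adjusted p at 30 minutes.

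At 1 day PLK2 fell and IKBIP rose. PLK2, a polo-like kinase that is also a gene of the immediate-early stress response, stood at 16.4, 13.4, 18.0 and 15.8 CPM at 1 day in LG04, LG11, LG12 and LG15, against 35.9, 39.6, 99.9 and 72.0 CPM before treatment. PLK2 was lower in 4 of 4 animals, as were 9.09% of all genes, by a log2 change of -1.81 ± 0.27 (SE; edgeR adjusted p = 0.0149). IKBIP, a p53-induced gene that promotes cell death, stood at 24.3, 55.2, 15.7 and 13.4 CPM at 1 day, against 10.6, 26.9, 6.997 and 7.77 CPM before treatment. IKBIP was higher in 4 of 4 animals, as were 9.83% of all genes, though the levels overlapped between animals. Its log2 change was 1.05 ± 0.17 (SE; edgeR adjusted p = 0.0193). These were 1 called higher and 1 called lower of 60, where edgeR called 26 genes in all, 0.225% of those tested, 6 higher (0.052%) and 20 lower (0.173%). Nothing is read from this contrast, since the lists were chosen with earlier results of these data known. Both calls were lost without the 2 hour and 1 day libraries of LG04, with log2 changes of -2.02 (edgeR adjusted p = 0.0521) for PLK2 and 1.07 (0.0786) for IKBIP. They were also lost without LG04, LG11 or LG12, and that of PLK2 without LG15 as well, at edgeR adjusted p of 0.0572 to 0.211.

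PLK3 (-1.31), IER5 (-1.18) and SERTAD1 (-1.004), with PLK2 and IKBIP, had the largest log2 changes at 1 day. IER5, an immediate-early response gene, stood at 20.4, 13.4, 9.29 and 17.8 CPM at 1 day in LG04, LG11, LG12 and LG15, against 41.2, 45.3, 24.1 and 25.3 CPM before treatment. The change of IER5 did not pass (edgeR adjusted p = 0.0700), nor did that of PLK3 (0.0917) or SERTAD1 (0.2596). SERTAD1 depended on the animals included, with a log2 change of -0.37 without LG11 and -1.52 without LG15. All 4 genes that were lower are in the list for arrest and growth control, where 10 of 13 tested genes had a log2 change below 0 and the median was -0.37. In 4 of 4 animals 4 of these 13 were lower, against 9.09% of all genes. DESeq2 called 4 of these 13 lower, PLK2, PLK3, IER5 and BTG2, and none higher, against 3.46% of all genes called in either direction. BTG2 and APAF1 are named after their calls were seen. In the lists for apoptosis (14 tested) and for DNA repair, metabolism and other functions (33 tested) DESeq2 called 1 gene each at 1 day, APAF1 and IKBIP, both higher. The medians of these lists were -0.06 and -0.05, against -0.00 over all genes. Platelet markers moved with the 1 day libraries, since 11 of 11 had a log2 change above 0 with a median of 2.63, and their summed level was 827.2 to 32960 CPM at 1 day, against 134 to 10010 CPM before treatment. With the mean log2 level of the platelet markers as a further term, the log2 change was -2.19 for PLK2 (edgeR adjusted p = 0.151), 1.02 for IKBIP (0.867) and -0.71 for PLK3. Neutrophil markers had a median log2 change of -1.34 at 1 day (8 of 10 below 0) and monocyte markers of 0.64 (15 of 16 above 0), and with the monocyte term PLK2 was -1.62 and IKBIP 0.96. The part of these cell markers in the 1 day changes was not tested beyond the 2 terms.

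**Figure D4:**
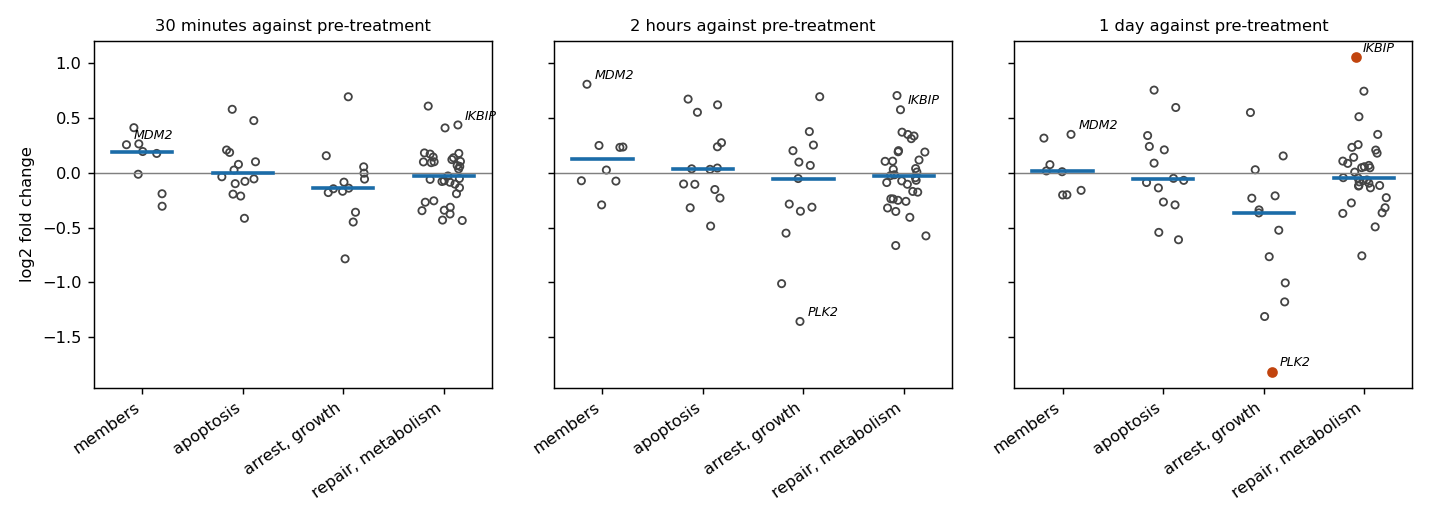
Fitted log2 fold change against pre-treatment (y axis) of the genes tested in 4 lists (x axis: the 8 genes, and other p53 targets of apoptosis, of arrest and growth control, and of DNA repair, metabolism and other functions) at 30 minutes, 2 hours and 1 day. Each circle is a gene, filled where edgeR called it (PLK2 and IKBIP at 1 day), and the horizontal bars are the medians, the lowest of which is -0.37 for arrest and growth control at 1 day.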

How the data were processed

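The authors deposited whole-number read counts per gene, not normalized, and FPKM values, which allow for gene length and depth. Per the submitters' processing notes, the reads passed through STAR, HTSeq, FastQC, Trimmomatic, edgeR and DESeq (roles and versions not given) and the builds named are human, GRCh37 and hg19. Macaque transcripts were thus read on human annotation, and genes that differ between the species can be undercounted. Per the labels' protocols the libraries were stranded, depleted of ribosomal RNA and sequenced with single reads of 75 cycles. The program behind the FPKM values is not given in the sources used here.

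The 24369 entries were summed to 23602 symbols in 16 libraries. Groups were taken from the titles, and libraries of the 4 animals at each time served as replicates (n = 4). The test was edgeR's quasi-likelihood F test (edgeR 4.0.16, R 4.3.3). TMM, filterByExpr (11545 genes kept) and a model of animal plus time in 1 fit were used (9 residual degrees of freedom), and p-values were adjusted over all genes with a threshold of 0.05. The SE is the log2 change divided by the root of F, and 95% intervals use a t distribution. The fit was tested on simulated counts that held no differences between animals, so that test does not cover paired data such as these. A floor of 3 counts was 0.35 to 2.12 CPM, which covers counting error only.

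The 8 genes and the gene lists were chosen with earlier results of these data known. Genes named were the 8, MDM4, the 5 other p53 targets with the largest absolute change at each time, and the 6 genes most correlated with MDM2. Another gene of the rule and its list are not reported here. Alternatives were DESeq2 1.42.0, DESeq2 size factors in edgeR, no filter, no globin genes, no animal block, marker scores as covariates, leaving out each animal or the 4 shallowest libraries and, added after seeing the data, leaving out the 2 hour and 1 day libraries of LG04. Pairing by animal comes from the labels, which name the same 4 animals at every time.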

Additional observations from a re-analysis of the deposited data

Results flagged for a closer look

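In 1 of 32 sets of 4 levels examined, 1 animal stood far from the other 3. This was MDM2 at 2 hours, where LG11 had 366.8 CPM and the other animals 186.4 to 198.2 CPM, a gap of 0.934 of the whole range. By this criterion about 1 in 20 sets is expected to stand out by chance. MDM2 was also highest in LG11 at the other 3 times, and without LG11 its log2 change at 2 hours was 0.72.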

How the results depend on the processing

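Across all alternatives the log2 change of MDM2 stayed above 0, within 0.05 to 0.35 at 30 minutes, 0.59 to 0.86 at 2 hours and 0.23 to 0.53 at 1 day, and that of PPM1D stayed below 0 at all 3 times. The count of genes called at 1 day (26) depended on the setting. It was 400 with DESeq2, 469 with the monocyte term, 70 with no filter, 1 with the platelet term, 0 without the 4 shallowest libraries, 1 without the 2 hour and 1 day libraries of LG04, and 1 to 67 when 1 animal was left out. With no replicate block for the animal it was 3, and PLK2 and IKBIP were no longer called (edgeR adjusted p of 0.351 and 0.862). At 2 hours, where 0 genes were called, DESeq2 called 79 and the fit with no filter 7, and at 30 minutes DESeq2 called 14 against 0. The causes were not tested.

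Small changes at 30 minutes and 1 day that turned sign were CDKN1A at 1 day (0.032 without the shallowest libraries) and TP53INP1 at 1 day (-0.037 with no filter, -0.006 with no replicate block, -0.012 without globin genes, -0.028 without the 2 libraries of LG04, -0.105 without the shallowest). ZMAT3 at 1 day was -0.095 with the monocyte term, -0.033 with no filter, -0.007 without globin genes and -0.001 without the shallowest. Leaving out 1 animal gave -0.037 to 0.146 for TP53INP1 and -0.12 to 0.23 for ZMAT3 at 1 day, and -0.104 to 0.032 for ZMAT3 and -0.423 to 0.075 for MDM4 at 30 minutes. Changes at 2 hours that turned sign, with no test, were CDKN1A (-0.048 without LG04), CCNG1 (0.073 without LG15, 0.008 without the shallowest), ZMAT3 (0.14 and 0.045 in the same settings), MDM4 (-0.051 without LG12) and XPC (down to -0.021 in 5 settings), beside ANXA4 and TGFA with the monocyte term.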
